A study of Mus musculus with 6 samples.

Results

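The regions described here were the FXR ChIP-seq peaks of mouse liver whose nearest gene belonged to 4 families of oxidoreductases, the aldehyde dehydrogenases (Aldh), the alcohol dehydrogenases (Adh), the retinol dehydrogenases (Rdh) and the aldo-keto reductases (Akr). A peak was a member when its assigned gene name began with one of these prefixes followed by a digit, and Akr1d1, an enzyme of bile acid synthesis, was left out by that rule along with its 8 and 5 peaks. There were 119 members among 32535 peaks, 78 of 20040 in the list of Bcl6fl/fl livers and 41 of 12495 in the list of Bcl6LKO livers. With overlapping pairs counted once they covered 83 distinct regions. The peaks were assigned by distance to the nearest transcription start site (TSS), which does not show that FXR acts on the named gene.

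All livers came from male C57BL/6 mice, and both groups carried floxed Bcl6 alleles, with loxP sites placed between exons 5 and 6. Bcl6fl/fl mice had no Cre and were the controls. Bcl6LKO mice also carried Albumin-Cre, which is active in hepatocytes, so the other cells of the liver kept their Bcl6. Each genotype had 2 libraries precipitated with the FXR antibody E4B8P and 1 input library, and no age is given for these animals in the sources used here. The comparison asks which FXR sites near these enzymes differ when hepatocytes lack BCL6. The tables hold no RNA, so the deletion of Bcl6 was not checked here, and in whole liver fewer cells with FXR at a site and less FXR per cell cannot be told apart.

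FXR is a nuclear receptor that is activated by bile acids and binds DNA mainly together with RXR, while BCL6 is a transcriptional repressor abundant in hepatocytes. The 4 families share the chemistry of alcohols and carbonyl compounds. Alcohol and retinol dehydrogenases oxidise alcohols to aldehydes, aldehyde dehydrogenases oxidise aldehydes to acids, and aldo-keto reductases reduce aldehydes, ketones and ketosteroids. In liver they clear ethanol and lipid aldehydes, break down amino acids, and convert retinol by way of retinaldehyde to retinoic acid.

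The strongest member sites and the sites nearest to the FXR motif are shown as plus-strand GRCm38.p6 sequence, an assembly with the coordinates of mm10. The motif searched was an inverted repeat of the nuclear receptor element AGGTCA with a 1-base spacer (IR1), AGGTCANTGACCT, and up to 2 of the 12 scored bases could differ. Only 2 member regions held an IR1 with 1 mismatch within 100 bp of the peak centre, and none held an exact one. These lie beside Rdh9 and Aldh1a7, and they are shown because they were the closest to the motif, with the IR1 in capitals.
Rdh9 promoter, chr10:127776318-127776346: atcagaacAGGTCAATGACCAgagactga
Aldh1a7 intergenic, chr19:20744993-20745021: ttctatacAGGTCAATGTCCTgccataag

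The strongest peak of each family in Bcl6fl/fl livers that was also found in Bcl6LKO livers is shown whole, because these 4 sites led their families in level. Capitals mark the IR1 with 2 mismatches beside Akr1b7, and in the other sequences each exact AGGTCA or its complement TGACCT. Akr1b7 was the only one of the 4 with an IR1. The Aldh4a1 site held 2 TGACCT and the Rdh10 site 1, and the Adh4 site held neither element. The Akr1b7 site also held an exact TGACCT outside its IR1, left in lower case.
Aldh4a1 intron 1, chr4:139624201-139624411: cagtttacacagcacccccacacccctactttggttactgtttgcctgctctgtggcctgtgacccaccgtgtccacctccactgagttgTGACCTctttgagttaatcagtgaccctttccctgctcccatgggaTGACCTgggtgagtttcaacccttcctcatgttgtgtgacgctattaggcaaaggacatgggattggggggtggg
Adh4 intergenic, chr3:138410168-138410378: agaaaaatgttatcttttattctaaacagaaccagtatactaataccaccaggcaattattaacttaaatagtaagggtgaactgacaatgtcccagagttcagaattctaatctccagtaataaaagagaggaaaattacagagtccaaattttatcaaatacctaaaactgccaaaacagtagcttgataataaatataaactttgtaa
Rdh10 intergenic, chr1:16199349-16199559: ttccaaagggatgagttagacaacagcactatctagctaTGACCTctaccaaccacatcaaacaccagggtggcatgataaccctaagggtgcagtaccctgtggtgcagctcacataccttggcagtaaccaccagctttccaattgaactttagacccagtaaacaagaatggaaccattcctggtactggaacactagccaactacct
Akr1b7 promoter, chr6:34411970-34412180: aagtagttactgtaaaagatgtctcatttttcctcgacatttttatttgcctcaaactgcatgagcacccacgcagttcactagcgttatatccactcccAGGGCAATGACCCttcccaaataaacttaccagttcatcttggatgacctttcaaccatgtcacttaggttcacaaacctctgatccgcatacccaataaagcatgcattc

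The libraries were of unequal depth. The ChIP libraries held 19022618 and 21287263 to 22637613 tags, except Bcl6fl/fl replicate 2 with 2883717. At the member peaks of that shallow library the median was an estimated 9.32 tags, against 34.4 to 39.6 in the other 3. Peaks were called by the authors on the pooled libraries of a genotype, so a count of peaks has no replicate spread, and the 95% Wilson intervals given with shares cover counting error over peaks only. Replicate 1 gave 86.8% of the pooled Bcl6fl/fl tags, so that list rests mostly on 1 library. The Bcl6LKO pool held 2.01 times as many tags as the Bcl6fl/fl pool. The values of each genotype were normalized separately. Levels are therefore given relative to the same library, as log2 units above its median over the 9918 peak pairs that overlap between the lists, and no test between genotypes was run. Differences are relative too, since the median Bcl6LKO minus Bcl6fl/fl difference over all pairs was -0.30 on the deposited log2 scale and -1.12 on a library-total scale, where each table was divided by its mean library total.

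Members were fewer in the Bcl6LKO list in every family. The Aldh family went from 38 peaks in Bcl6fl/fl to 23 in Bcl6LKO, Adh from 16 to 6, Rdh from 14 to 10 and Akr from 10 to 2. Over the families the Bcl6fl/fl list held 1.90 times as many members, beside 1.6 times as many peaks in all. Of 58 family genes in the RefSeq annotation, 33 had a peak in Bcl6fl/fl, 24 in Bcl6LKO, 23 in both and 24 in neither. The same shares over all genes were not counted, so these gene counts do not show a trait of the families. The genes with a peak in Bcl6fl/fl alone were Adh6a, Akr1c6, Akr1c14, Akr1e1, Akr7a5, Aldh1a3, Aldh7a1, Rdh5, Rdh11 and Rdh16. Rdh8, known as an all-trans-retinol dehydrogenase of photoreceptors, was the only gene with a peak in Bcl6LKO alone.

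**Figure D1:**
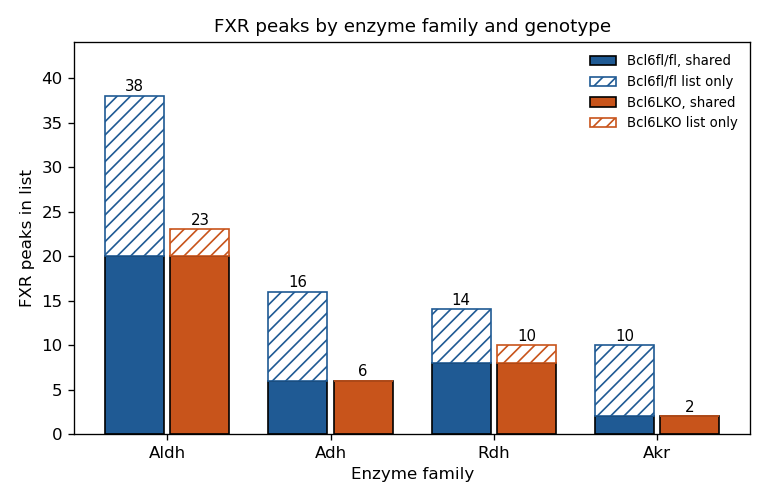
Number of FXR peaks (y axis) in each enzyme family (x axis), in the Bcl6fl/fl list (blue) and the Bcl6LKO list (orange); filled bars are peaks that overlap a peak of the other genotype by at least 1 bp and hatched bars are peaks in 1 list only. The bars fall from 38 to 23 peaks in Aldh, from 16 to 6 in Adh, from 14 to 10 in Rdh and from 10 to 2 in Akr.

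Of the 78 Bcl6fl/fl members, 36 overlapped a Bcl6LKO peak by at least 1 bp, or 46.2% (95% Wilson interval 35.5 to 57.1%). The share over all Bcl6fl/fl peaks was 49.5%, which lies within that interval. Of the 41 Bcl6LKO members, 36 had a Bcl6fl/fl partner, or 87.8% (74.5 to 94.7%), against 79.4% of all Bcl6LKO peaks. By family the Bcl6fl/fl peaks with a partner were 20 of 38 in Aldh (52.6%, 37.3 to 67.5%), 6 of 16 in Adh (37.5%, 18.5 to 61.4%), 8 of 14 in Rdh (57.1%, 32.6 to 78.6%) and 2 of 10 in Akr (interval 5.67 to 51.0%). These intervals overlap one another. Cutting both lists to the same length, strongest peaks first, left 50 Bcl6fl/fl members with a share of 68.0%, beside 68.3% of all peaks so cut. Asking for at least 10 estimated tags in both Bcl6fl/fl replicates left 37 with a share of 73.0%, beside 75.6% of all such peaks.

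The members without a partner were weaker in the median. Strength was the mean log2 value of the ChIP libraries, ranked within its own list, and the median percentile was 76.3 for the 36 Bcl6fl/fl members with a partner and 29.4 for the 42 without. Of 38 members at or above the list's median strength, 31 had a partner (81.6%, 66.6 to 90.8%), and of 40 below it, 5 did (12.5%, 5.46 to 26.1%). All Bcl6fl/fl peaks gave 75.5% and 23.5% in the same classes. The families differed in strength, since the median percentile of their Bcl6fl/fl peaks was 65.1 in Aldh, 47.8 in Rdh, 41.1 in Adh and 32.9 in Akr. Only 2 of the 10 Akr peaks reached the median of the list, and those were the 2 with a partner.

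**Figure D2:**
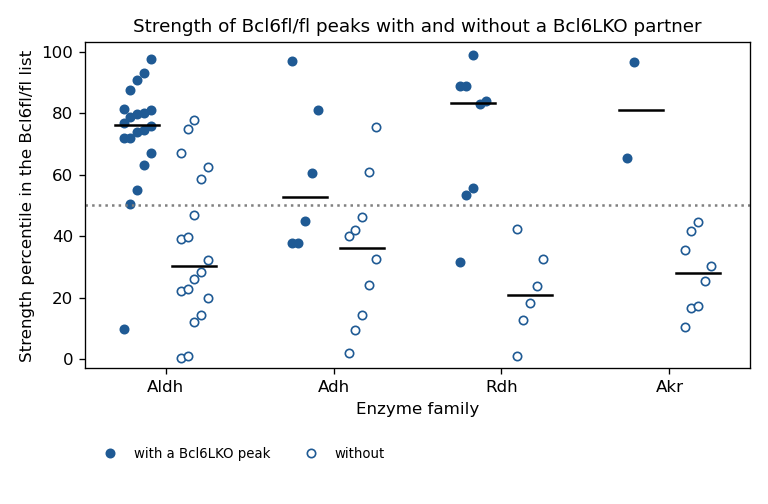
Strength percentile of each Bcl6fl/fl member within its own list (y axis) by family (x axis); filled points overlap a Bcl6LKO peak, open points do not, black bars are medians and the dotted line is the 50th percentile. Peaks with a partner sit at medians of 76.3 (Aldh), 52.8 (Adh), 83.5 (Rdh) and 81.0 (Akr), above those without, at 30.4, 36.3, 20.9 and 27.9.

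Among the retinol dehydrogenases the highest level of any member in Bcl6fl/fl was at Rdh10, the membrane enzyme that makes retinaldehyde for retinoic acid synthesis. Its strongest peak, shown above, lay 93572 bp downstream of the Rdh10 TSS in intergenic sequence and stood at percentile 98.8 of the Bcl6fl/fl list and 96.1 of the Bcl6LKO list. By the detailed annotation it lay in a LINE element, and the TSS of Rpl7 was only slightly farther away, at 95021 bp. The relative level was 2.35 and 2.71 in the Bcl6fl/fl libraries and 1.91 and 2.35 in the Bcl6LKO libraries. The difference was -0.40 (pooled SD 0.28), but the nearest libraries of the genotypes were equal to 2 decimals, and it was -0.18 without Bcl6LKO replicate 1 and -0.22 without Bcl6fl/fl replicate 2. Another Rdh10 peak, 122512 bp downstream and annotated to the 3' end of Stau2, stood at 0.70 and 0.27 in Bcl6fl/fl and at 1.07 and 0.91 in Bcl6LKO. There the libraries of Bcl6LKO were the higher ones. A further peak assigned to Rdh10, in an intron of Stau2, was in the Bcl6fl/fl list alone, at percentile 1.12.

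Most other Rdh peaks lay in a gene cluster on chromosome 10 that spans 130 kb of peaks, with 9 Bcl6fl/fl and 7 Bcl6LKO members, 6 of them shared. Its genes Rdh1, Rdh7, Rdh9, Rdh16 and Rdh19 encode short-chain dehydrogenases that act on retinol and hydroxysteroids. The Rdh9 promoter peak, centred 86 bp upstream of the TSS and holding the IR1 shown above, stood at 0.95 and 0.83 in Bcl6fl/fl and at 1.61 and 1.58 in Bcl6LKO. Both Bcl6LKO libraries were higher, by 0.71 (pooled SD 0.06), and the difference ran from 0.65 to 0.77 when a library was left out. The Rdh7 promoter peak, 90 bp upstream, went the opposite way, from 0.61 and 0.49 in Bcl6fl/fl to 0.13 and 0.17 in Bcl6LKO. The libraries were again apart, with a difference of -0.40 (pooled SD 0.07). The Rdh1 promoter peak, 425 bp upstream, stood at -0.80 and -0.39 in Bcl6fl/fl and at -0.26 and -0.84 in Bcl6LKO, and its libraries overlapped. In intron 2 of Rdh1 each list held a weak peak, but their centres were 217 bp apart and they did not overlap.

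Rdh7 had the most peaks of its family, 4 in Bcl6fl/fl and 3 in Bcl6LKO, with mean levels from -1.71 to 0.55 and from -0.99 to 0.15. The peak assigned to Rdh19 lay in an intron of the pseudogene Rdh18-ps and in an LTR element, and its libraries overlapped (0.88 ± 0.10 and 0.79 ± 0.24, SD, n = 2). Rdh16 had 1 peak, in intron 1, in Bcl6fl/fl alone. Outside the cluster, the promoter peaks of Rdh5, an 11-cis-retinol dehydrogenase of the eye, and Rdh11, a retinaldehyde reductase, were weak and in Bcl6fl/fl alone, at percentiles 18.2 and 23.7. In all, 2 of 8 shared Rdh peaks had both Bcl6LKO libraries above both Bcl6fl/fl libraries and 2 had both below, near the 29.8% and 25.2% of all 9918 shared pairs. The median difference over the 8 was -0.02, and with single libraries left out it ran from -0.19, without Bcl6LKO replicate 1, to 0.06, without Bcl6LKO replicate 2.

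**Figure D3:**
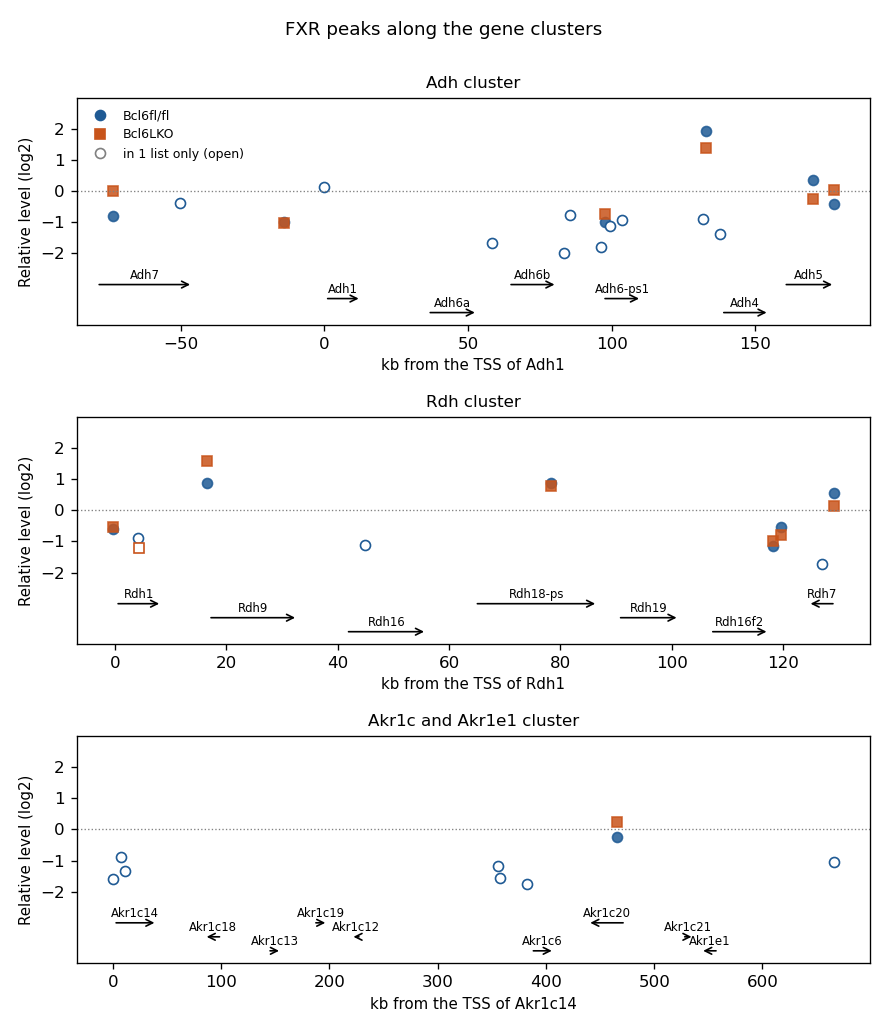
Mean relative level (y axis, log2 units above the library's median over all shared peaks, n = 2 libraries) of each member along the Adh, Rdh and Akr1c clusters, with the distance from the TSS of Adh1, Rdh1 or Akr1c14 in kb on the x axis; blue circles are Bcl6fl/fl, orange squares Bcl6LKO, open symbols are peaks in 1 list only and arrows are RefSeq genes. The Akr1c cluster holds 8 Bcl6fl/fl peaks and 1 Bcl6LKO peak, and the Rdh cluster 9 and 7.

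The alcohol dehydrogenase peaks all lay in the Adh cluster of chromosome 3, over 251 kb, so they share a locus. Of the 16 peaks in Bcl6fl/fl, 6 were shared, and every Bcl6LKO peak of the cluster had a partner. The strongest, 5224 bp upstream of Adh4, the class II enzyme of liver, stood at 1.67 and 2.20 in Bcl6fl/fl and at 1.11 and 1.66 in Bcl6LKO. The difference was -0.56 (pooled SD 0.38), with the nearest libraries only just apart, and it shrank to -0.29 without Bcl6fl/fl replicate 2 and to -0.28 without Bcl6LKO replicate 1. Adh5, which oxidises glutathione-bound formaldehyde, had peaks in introns 3 and 8. The intron 3 peak went from 0.27 and 0.48 in Bcl6fl/fl to -0.04 and -0.48 in Bcl6LKO. The intron 8 peak went from -0.18 and -0.62 to -0.16 and 0.22, so the relative means of these sites differed in opposite directions. At intron 8 the nearest libraries were only just apart, and the shallow Bcl6fl/fl replicate 2 held an estimated 9.04 tags. On the library-total scale all 6 Adh pairs were lower in Bcl6LKO.

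No Adh promoter peak was shared. Bcl6fl/fl had promoter peaks at Adh1, Adh4 and Adh6-ps1, and Bcl6LKO had none in the family. Adh1 encodes the main ethanol-oxidising enzyme of liver. Its promoter peak, 79 bp upstream of the TSS and with an IR1 of 2 mismatches, stood at -0.16 and 0.39 in the Bcl6fl/fl libraries, at percentile 75.5. It was among the 3 strongest members without a partner, and the nearest Bcl6LKO peak was 13881 bp away. The Adh4 and Adh6-ps1 promoter peaks were weaker, at percentiles 24.2 and 9.63.

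The remaining shared Adh peaks were weak. Adh7, a retinol-oxidising enzyme best known from stomach, had a peak that stood at -0.30 and -1.31 in Bcl6fl/fl. By the authors' annotation it was intergenic, 13844 bp upstream of a TSS of Adh7, but it lay inside the span of the gene in RefSeq, which has a further transcript with an earlier start. In Bcl6LKO it stood at -0.002 and -0.001. The Bcl6LKO libraries were the higher ones, by 0.80 (pooled SD 0.50), but the difference was 0.30 without the shallow Bcl6fl/fl replicate 2, which held an estimated 5.60 tags there, and 1.31 without Bcl6fl/fl replicate 1. Adh6-ps1, a pseudogene, had the most peaks of the family, 6 in Bcl6fl/fl with mean levels of at most -0.77 and 1 in Bcl6LKO at -0.73. Adh6a had 1 weak peak in Bcl6fl/fl alone, and the 1 shared Adh1 peak, 13956 bp upstream, overlapped between genotypes. The median difference over the 6 Adh pairs was 0.11, with 3 pairs above, 2 below and 1 overlapping, beside 29.8% above and 25.2% below over all pairs. Only the Adh4 peak and the intron 3 peak of Adh5 had at least 10 estimated tags in all 4 libraries, and over these 2 the median was -0.59.

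Of the aldehyde dehydrogenases, Aldh4a1 had the strongest site. Aldh4a1 is the mitochondrial enzyme that completes proline breakdown to glutamate. Its peak in intron 1, 1412 bp from the TSS, stood at 1.98 and 2.23 in Bcl6fl/fl and at 1.79 and 1.55 in Bcl6LKO, a difference of -0.44 (pooled SD 0.17). A neighbouring peak of the same intron, 2054 bp from the TSS, went the other way, from 0.44 and 0.09 to 0.54 and 0.75. Further into intron 1, peaks 8447 and 9480 bp from the TSS were in Bcl6fl/fl alone, at percentiles 67.0 and 14.4.

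The largest differences towards a lower level in Bcl6LKO were at Aldh9a1, Aldh2 and Aldh8a1. Aldh9a1, an enzyme of carnitine synthesis, had a peak in intron 1 that stood at 0.13 and 0.54 in Bcl6fl/fl and at -0.51 and -0.36 in Bcl6LKO, a difference of -0.76 (pooled SD 0.22). Aldh2, the mitochondrial enzyme that clears acetaldehyde, had an intron 1 peak 9509 bp from the TSS at 0.36 and 0.26 in Bcl6fl/fl and at -0.54 and -0.29 in Bcl6LKO. That was a difference of -0.73 (pooled SD 0.13). Aldh8a1, an enzyme of tryptophan breakdown along the kynurenine route, had a peak 47604 bp downstream of its TSS at 0.25 and 0.51 in Bcl6fl/fl and at -0.40 and -0.29 in Bcl6LKO, a difference of -0.72 (pooled SD 0.14). These 3 sites were chosen as the largest differences among sites with libraries apart, so the separation is no separate finding. With any library left out the differences stayed between -0.97 and -0.56, and their sign could not change.

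Aldh2 also held 2 of the 3 strongest Bcl6fl/fl members that had no partner, the other being the Adh1 promoter peak. Its intron 1 peak 831 bp from the TSS stood at 0.19 and 0.25 in Bcl6fl/fl, at percentile 77.8, and the nearest Bcl6LKO peak, in the 5' UTR, was centred 697 bp away. The intron 1 peak 11761 bp from the TSS stood at 0.28 and -0.11, at percentile 74.8. The 5' UTR peak itself was shared, at 0.36 and -0.01 in Bcl6fl/fl and at -0.12 and 0.02 in Bcl6LKO, and its libraries overlapped.

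Aldh1l1, a cytosolic folate enzyme that oxidises 10-formyltetrahydrofolate, had the most peaks of any member gene in the Bcl6fl/fl list, 8, with mean levels from -2.07 to 1.31, and 4 in Bcl6LKO from -0.29 to 0.95. All 4 shared peaks had a lower mean in Bcl6LKO, with differences from -0.42 to -0.19. Its promoter peak, 46 bp upstream of the TSS, stood at 0.52 and 0.26 in Bcl6fl/fl and at -0.07 and 0.004 in Bcl6LKO, a difference of -0.42 (pooled SD 0.13). The peak 6168 bp upstream, the strongest of the gene, stood at 1.60 and 1.03 against 0.95 and 0.95. Aldh8a1 had 7 peaks in Bcl6fl/fl and the most in Bcl6LKO, 5. Its 4 shared peaks lay 47604 to 82897 bp beyond its TSS. The Aldh8a1 promoter peak was in Bcl6fl/fl alone and among the weakest, at percentile 1.12.

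Some Aldh sites stood higher in Bcl6LKO. Aldh1b1, another mitochondrial aldehyde dehydrogenase, had a peak 9108 bp upstream of its TSS at -0.66 and -2.90 in Bcl6fl/fl and at -0.04 and 0.63 in Bcl6LKO, the largest difference of any member at 2.08 (pooled SD 1.17). That value rested on Bcl6fl/fl replicate 2, which held an estimated 1.86 tags there, and it was 0.96 without that library and 3.20 without Bcl6fl/fl replicate 1. The Aldh1b1 promoter peak, 32 bp from the TSS, stood at -0.63 and -0.47 in Bcl6fl/fl and at -0.25 and -0.44 in Bcl6LKO, with the nearest libraries only just apart. An Aldh1b1 intron peak at -0.21 and -0.49 was the strongest of the 5 Bcl6LKO members without a partner, at percentile 42.9. The next were weak, at percentiles 19.5 and 18.8, an Aldh8a1 peak at -0.90 and -0.80 and a peak of Aldh1a2, a retinaldehyde dehydrogenase, at -1.25 and -0.47, with a Bcl6fl/fl peak of the same gene centred 1606 and 1764 bp away, in that order.

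Sites of Aldh1a1, Aldh1a3 and Aldh1a7 had overlapping libraries or were in 1 list. Aldh1a1, an abundant cytosolic retinaldehyde dehydrogenase, had a shared peak 52412 bp downstream at 0.09 and 0.08 in Bcl6fl/fl and at -0.32 and 0.12 in Bcl6LKO, and an intron 9 peak in Bcl6fl/fl alone. Its close relative Aldh1a7 had the intergenic IR1 peak shown above, at -0.32 and 0.26 in Bcl6fl/fl and at 0.04 and -0.60 in Bcl6LKO, where the libraries overlapped. A weaker Aldh1a7 promoter peak was in Bcl6fl/fl alone. Aldh6a1, an enzyme of valine breakdown, had a peak 474 bp inside the gene at -0.29 and -0.36 against 0.08 and -0.44. The authors annotated this peak as promoter, but of Lin52, whose TSS lay 958 bp away. Aldh3a2, which oxidises fatty aldehydes, had 2 shared peaks, both lower in Bcl6LKO, with differences of -0.51 in intron 3 and -0.14 at 6574 bp upstream. Aldh7a1, of lysine breakdown, and Aldh1a3 each had 1 weak peak in Bcl6fl/fl alone.

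Over the 20 shared Aldh peaks, 10 had both Bcl6LKO libraries below both Bcl6fl/fl libraries and 3 had both above, beside 25.2% and 29.8% of all shared pairs. The mean was lower in Bcl6LKO at 15 of the 20, beside 48.0% of all pairs. The median difference was -0.24. It was -0.15 without Bcl6fl/fl replicate 1 and -0.29 without Bcl6fl/fl replicate 2, and -0.29 over the 18 pairs with at least 10 estimated tags in all 4 libraries, where the median of all pairs was itself lower, at -0.12. Of those 18, 10 were below and 2 above, beside 34.4% and 20.8% of all such pairs. There the interval for the 10, 33.7 to 75.4%, included the 34.4%. No test of the difference between families was run, and peaks of the same gene are not independent of one another.

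The aldo-keto reductases had 2 shared peaks, both higher in Bcl6LKO in relative level and both lower on the library-total scale. Akr1b7, an aldose reductase-like enzyme that reduces lipid aldehydes, had a promoter peak 287 bp upstream of the TSS that stood at 1.81 and 1.98 in Bcl6fl/fl and at 2.39 and 2.52 in Bcl6LKO. It was the strongest member in Bcl6LKO. The libraries were apart, with Bcl6LKO higher by 0.56 (pooled SD 0.11), and the difference ran from 0.48 to 0.64 when a library was left out. Input reached at most an estimated 2.64 tags at any Bcl6fl/fl member and 3.26 at any Bcl6LKO member. The Bcl6fl/fl ChIP libraries held an estimated 224 and 54.7 tags at the Akr1b7 peak. Input signal at this peak was above the 95th percentile of the list in Bcl6fl/fl but not in Bcl6LKO, and the part of input in the difference was not tested. The other was in intron 1 of Akr1c20, at 0.10 and -0.61 in Bcl6fl/fl and at 0.34 and 0.12 in Bcl6LKO, where the input was above that limit in Bcl6LKO.

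The remaining 8 Akr peaks were in Bcl6fl/fl alone, and all were below the median strength of the list. Akr1c6 and Akr1c14, hydroxysteroid dehydrogenases of the Akr1c cluster on chromosome 13, had 3 each, with mean levels from -1.76 to -1.18 and from -1.60 to -0.89. The Akr1c14 peak that the authors annotated as intergenic, 10753 bp upstream of a TSS, ended at position 4048943. That is just before the RefSeq start of the gene, at 4048991. Akr1e1, a reductase of anhydrofructose, and Akr7a5, which reduces succinic semialdehyde, had 1 each. The Akr1c cluster, counted with Akr1e1, held 8 Bcl6fl/fl peaks and 1 Bcl6LKO peak. By the authors' detailed annotation, 6 of the 10 Bcl6fl/fl Akr peaks lay in a repeat element, such as a LINE or LTR, against 7 of 16 Adh, 3 of 14 Rdh and 3 of 38 Aldh peaks and 17.3% of all Bcl6fl/fl peaks. Only uniquely mapped reads were kept, and the part of repeats in these counts was not tested.

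**Figure D4:**
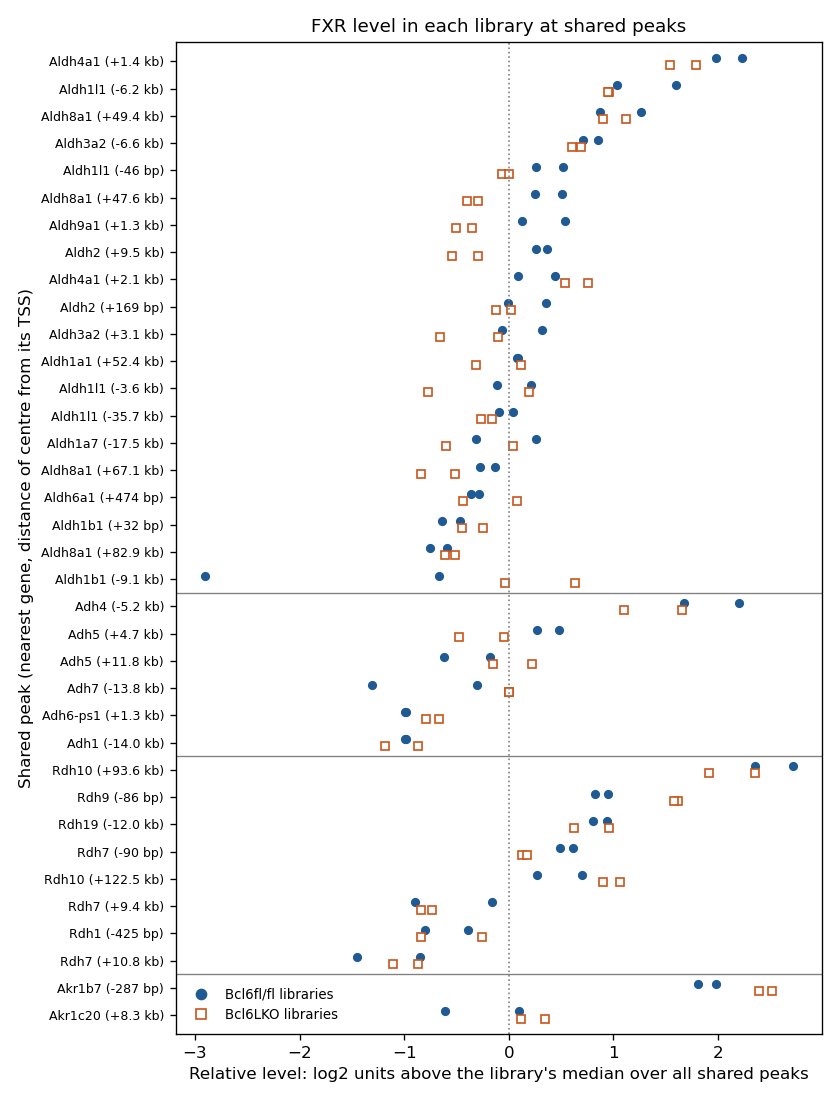
Relative level of each of the 36 shared member peaks in the 4 ChIP libraries (x axis, log2 units above the library's median over all shared peaks), 1 row per peak, named by gene and by distance of the peak centre from the TSS and grouped as Aldh, Adh, Rdh and Akr from the top; blue circles are the Bcl6fl/fl libraries and open orange squares the Bcl6LKO libraries. The Rdh9 and Akr1b7 promoters stand to the right in Bcl6LKO, and the single point near -2.90 is the shallow library at Aldh1b1.

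Over all 36 shared members, 10 had both Bcl6LKO libraries above both Bcl6fl/fl libraries and 14 had both below. Among all 9918 shared pairs 29.8% were above and 25.2% below, and both shares lay within the members' 95% Wilson intervals, of 15.8 to 44% for the 10 and 24.8 to 55.1% for the 14. At Rdh10, one of the 14, the nearest libraries were equal to 2 decimals. Without the shallow Bcl6fl/fl replicate 2 the counts were 12 and 18 of 36, beside 41.1% and 35.3% of all pairs. With at least 10 estimated tags in all 4 libraries they were 5 and 14 of 27, beside 20.8% and 34.4%. On the deposited scale, without centring, they were 3 and 19 of 36 beside 12.9% and 37.3%, and on the library-total scale 0 and 35 of 36 beside 1.54% and 85.3%. The direction given for each site above is therefore relative to the other shared peaks, and on the library-total scale the Rdh9, Adh7 and Akr1b7 sites were lower in Bcl6LKO.

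The median relative difference over the 36 was -0.16, with 14 above 0, against 0.03 over all shared pairs, whose quartiles were -0.32 and 0.41. It was -0.07 without Bcl6fl/fl replicate 1 and -0.20 without Bcl6fl/fl replicate 2. By family the medians were -0.24 in Aldh, 0.11 in Adh, -0.02 in Rdh and 0.52 in Akr, the last from only 2 peaks, and those of Adh and Rdh changed sign under the alternatives given above. By more than their own pooled SD, 11 members were higher in Bcl6LKO and 15 lower, and 10 were within it, beside 33.7%, 29.4% and 36.8% of all shared pairs.

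**Figure D5:**
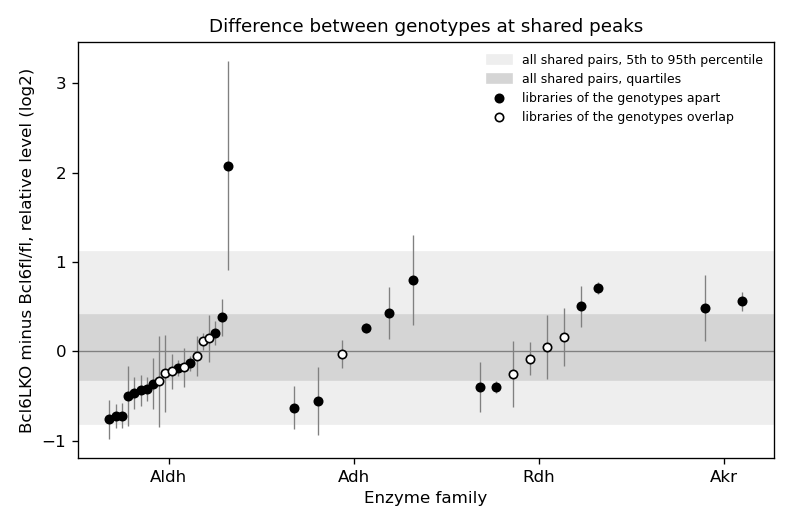
Bcl6LKO minus Bcl6fl/fl difference in relative level (y axis, log2) at each shared member peak, by family (x axis); error bars are the pooled SD of the 2 libraries of each genotype, filled points have all libraries of one genotype above those of the other, and grey bands show the quartiles and the 5th to 95th percentiles of all 9918 shared pairs. The Aldh points lie mostly below 0, with 15 of 20 lower, and both Akr points lie above it, though below it on the library-total scale.

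An IR1 within 100 bp of the centre was found in 11 of 78 Bcl6fl/fl members, or 14.1% (8.06 to 23.5%), against 11.8% of all Bcl6fl/fl peaks. In Bcl6LKO it was found in 9 of 41, or 22% (12 to 36.7%), against 16.2%. Windows 2 kb away from the members held it in 0 of 78, with a Wilson upper limit of 4.69%, and 0.893% of such windows did over all Bcl6fl/fl peaks. The 11 were at Aldh1a7, Aldh1b1, Aldh1l1, Aldh9a1, Adh1, Adh5, Adh7, Rdh9, Rdh16, Rdh19 and Akr1b7. Of these, 9 were among the 36 shared members (25%, 13.8 to 41.1%) and 2, at Adh1 and Rdh16, among the 42 others (4.76%, 1.32 to 15.8%), beside 16.6% and 7.16% over all Bcl6fl/fl peaks. Among the 9 shared sites with an IR1, both Bcl6LKO libraries were above both Bcl6fl/fl libraries at 5, which were Rdh9, Akr1b7, Adh5, Adh7 and Aldh1b1, and below at 1, Aldh9a1. Over all 1646 shared pairs with an IR1 44.7% were above and 17.2% below. The sites at Adh5, Adh7 and Aldh1b1 had under 10 estimated tags in Bcl6fl/fl replicate 2, and with at least 10 in all 4 libraries 2 of 6 were above, beside 38.5% of all such pairs. On the library-total scale none of the 9 was above and 8 were below. Of the 27 shared members without it 5 were above and 13 below, beside 26.9% and 26.8% of all shared pairs without it. The interval for the 5, 8.18 to 36.7%, included the 26.9%. That for the 13, 30.7 to 66.0%, did not include the 26.8%.

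Other elements were counted in the same windows. The single AGGTCA, exact and on either strand, was in 39.7% of Bcl6fl/fl members (29.6 to 50.8%) and 46.3% of Bcl6LKO members (32.1 to 61.3%), beside 40.3% and 41.3% of all peaks. A direct repeat with a 1-base spacer (DR1), AGGTCANAGGTCA with at most 2 mismatches, which can overlap the single element, was in 13 of 78 (16.7%, 10.0 to 26.5%) and 5 of 41 (12.2%, 5.32 to 25.5%), beside 12.8% and 11.9%. TTCNNNGAA, a pattern found in BCL6 and STAT5 sites, was in 9 of 78 (11.5%, 6.19 to 20.5%) and 4 of 41 (9.76%, 3.86 to 22.5%), beside 6.56% and 6.39% of all peaks. It was in 4 of 16 Adh and 3 of 10 Akr peaks of Bcl6fl/fl and in 1 of 38 Aldh and 1 of 14 Rdh peaks, while the windows 2 kb away held it in 2 of 16 for Adh and 2 of 10 for Akr. The intervals of the members included the share of all peaks for each element.

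Promoters held 14 of 78 Bcl6fl/fl members, or 17.9% (11 to 27.9%), and 7 of 41 Bcl6LKO members, or 17.1% (8.53 to 31.3%), beside 11.4% and 11.3% of all peaks. By family, and by the authors' annotation, the Bcl6fl/fl promoter peaks were 5 of 38 in Aldh, 3 of 16 in Adh, 5 of 14 in Rdh and 1 of 10 in Akr. The 7 Bcl6LKO promoter peaks were at Aldh1b1, Aldh1l1, Aldh6a1, Rdh1, Rdh7, Rdh9 and Akr1b7, and all had a Bcl6fl/fl partner. For the Aldh6a1 peak the promoter named by the annotation was that of Lin52. The 7 promoters without a Bcl6LKO peak were those of Adh1, Adh4, Adh6-ps1, Aldh1a7, Aldh8a1, Rdh5 and Rdh11. So 7 of 14 Bcl6fl/fl promoter members were shared, beside 50.6% of all Bcl6fl/fl promoter peaks, and 7 of 7 in Bcl6LKO, beside 81.7%. A larger share of members than of all peaks lay near a start site, with 73.1% (62.3 to 81.7%) within 20 kb in Bcl6fl/fl against 58.4% of all peaks. By family these were 24 of 38 in Aldh, 15 of 16 in Adh, 11 of 14 in Rdh and 7 of 10 in Akr. The Aldh share, 63.2% (47.3 to 76.6%), had an interval that included the share of all peaks, and the Adh peaks share 1 gene cluster.

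Genes of the same pathways outside the 4 families were counted for context. Of 24 genes of retinoid handling, 14 had a peak in Bcl6fl/fl and 10 in Bcl6LKO, with 56 and 33 peaks. Dhrs3, which reduces retinaldehyde back to retinol, led with 13 and 10, followed by Rxra, the FXR partner, with 10 and 5, the retinoic acid receptor Rara with 8 and 6, and Cyp26a1, which breaks down retinoic acid, with 6 and 4. Of 14 genes of ethanol and aldehyde handling, 10 and 9 had a peak, with 33 and 20 peaks. For scale, the whole Bcl6fl/fl list held 1.6 times as many peaks as the Bcl6LKO list. In Bcl6fl/fl, 31 of the 56 retinoid peaks and 18 of the 33 others were shared, beside 49.5% of all peaks. The share of all genes with a peak was not counted. Cat, the catalase gene, had 9 and 6, and Cyp2e1, the ethanol-oxidising cytochrome, had 1 in each list.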

How the data were processed

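FXR ChIP-seq and input libraries of male mouse liver were grouped by their labels into Bcl6fl/fl and Bcl6LKO, with 2 ChIP libraries and 1 input each. The authors crosslinked livers with disuccinimidyl glutarate and formaldehyde, aligned single-end reads to mm10 and kept unique alignments. Bowtie 1.2 and HOMER 4.10 are named in the submitters' processing notes. Peaks were called by the authors with each genotype's ChIP libraries pooled and its input as control, keeping, per the file headers, those at an adjusted p-value under 0.05 with a log2 fold over 1. The headers call the deposited value of each library at each peak a tag count, but these values are not whole and can be negative. They were taken as log2 values regularized by the authors within each table, which draws low values together. The estimated tags rest on that reading. The deposited Peak Score is a signal of the pooled libraries. Columns of fold change and p-value hold the authors' comparison of ChIP with input and were not used.

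Peaks were shared when they overlapped by 1 bp or more, which gave 9918 pairs. Each library was centred on its median over these pairs. Because the tables were normalized separately, no test between genotypes was run. SDs are over 2 libraries, which the sources do not state to be from separate mice, and the pooled SD is the root mean of the 2 variances. Tags were estimated from the log2 values and the library totals in the headers. Shares carry 95% Wilson intervals. Motifs were searched on both strands within 100 bp of the peak centre, and windows 2 kb away gave the background. All 32535 peaks lay within the chromosomes of GRCm38.p6, and the TSS distance of 75 of 78 Bcl6fl/fl and 38 of 41 Bcl6LKO members matched its RefSeq annotation within 2 bp.

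The members and gene lists were chosen with earlier results of these data known. Every gene with a member peak was named, and library values were given for the strongest shared peak of each family, shared promoter peaks, the 3 largest differences in each direction with libraries apart, the 3 strongest peaks without a partner in each list and peaks with an IR1 of at most 1 mismatch. The gene with most peaks per family was given by range. Alternatives varied overlap, strength, input, centring, depth and replicates. Code was tested on simulated data. Tools were pysam 0.24.0, scipy 1.17.1 and pandas 2.3.3 in Python 3.11.15, with matplotlib 3.10.9 for plots.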

Additional observations from a re-analysis of the deposited data

How the results depend on the processing

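No paired analysis was possible because the tables of the genotypes were normalized separately and were not tested against each other. Of 42 values of the main results under an alternative, 30 stayed within the error or count range of the reported value. The share of Bcl6fl/fl members with a Bcl6LKO peak moved to 68.0% with lists of the same length and to 73.0% with at least 10 estimated tags. Keeping peaks at or above the median strength left 38 Bcl6fl/fl and 20 Bcl6LKO members by construction. The IR1 share fell to 2.56% of Bcl6fl/fl and 4.88% of Bcl6LKO members at 1 mismatch and to 0% in both for an exact match. The median relative difference, -0.157, lay between -0.197 and -0.071 with single libraries left out, and it was -0.487 on the deposited scale, -1.303 on the library-total scale and -0.248 with at least 10 estimated tags in all 4 libraries. The medians of all shared pairs under those last 3 were -0.303, -1.12 and -0.12, so a value below 0 there is no sign of stability. On the library-total scale the differences at Adh7 (-0.344), Akr1b7 (-0.586) and Rdh9 (-0.437) changed sign, as the median pair lay 1.12 lower there. The alternatives by estimated tags, library totals and pooled peak scores, and those for single peaks and families, were chosen after seeing the data. The depth of Bcl6fl/fl replicate 2 limits sites with few tags, and the intervals of the families' shares overlap.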
